A study of Ovis aries with 16 samples.

Results

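Placental growth factor (PLGF) and vascular endothelial growth factor A (VEGFA) are secreted ligands of the VEGF family. VEGFA drives the growth and permeability of blood vessels mainly through the receptor KDR (VEGFR-2), and its gene is a classic target of the hypoxia-inducible factors. PLGF binds FLT1 (VEGFR-1) and not KDR, and FLT1 also exists as a soluble form that captures both ligands. In brain, VEGFA is made largely by astrocytes and neurons, while FLT1 and KDR mark endothelium.

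Both genes were followed in the hippocampus of 16 late-gestation fetal sheep, 24 h after the start of a 30 min stimulus. The normoxia control group (NC, 3 fetuses) had neither hypoxia nor ketamine, and the normoxia plus ketamine group (NK, 4 fetuses) was given ketamine, an NMDA receptor antagonist, into a fetal vein at 3 mg/kg before a normoxic period. In the hypoxia control group (HC, 5 fetuses) the ewe was made hypoxic by nitrogen in her tracheal tube and the fetus had no ketamine, and in the hypoxia plus ketamine group (HK, 4 fetuses) the fetus received that ketamine dose before hypoxia. All 4 groups were chronically catheterized and had 23.5 h of normoxia after the stimulus, and the RNA integrity numbers lay between 7.7 and 9.2. Each array held RNA of one fetus, and most fetuses were twins, with pregnancies and not fetuses assigned to normoxia or hypoxia, so 2 arrays of a study arm may come from one ewe and p-values measure only the spread between these samples. The tissue was the whole dissected hippocampus in bulk, in which fewer cells of a type and less RNA per cell cannot be told apart.

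The members were chosen by name: every probe whose gene name or description in the array annotation gives PLGF or VEGFA. These were 4 of 15008 probes, for 2 of 1017 gene names. PLGF had 2 probes, and so did VEGFA. The 2 probes of a gene are 60 bases long, are shifted by 1 base and share 59 bases, so they are repeat measurements of nearly the same sequence in the same RNA and not independent evidence. The PLGF probes come from a sheep cDNA clone that the annotation calls PLGF, and the VEGFA probes from the VEGFA reference mRNA. Their sequences are given because the results below turn on how closely such a pair agrees. The capitals in the PLGF probes mark an ATG that opens a reading frame without a stop up to the end of the probe.
PLGF A_70_P026692: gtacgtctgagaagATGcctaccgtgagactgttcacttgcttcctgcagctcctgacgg
PLGF A_70_P026691: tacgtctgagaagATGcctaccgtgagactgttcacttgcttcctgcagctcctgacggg
VEGFA A_70_P050921: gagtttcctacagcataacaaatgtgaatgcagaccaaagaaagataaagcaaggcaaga
VEGFA A_70_P050922: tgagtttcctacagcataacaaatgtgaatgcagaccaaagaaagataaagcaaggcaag

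Levels are given on the scaled log2 scale, which is log2 of the background-subtracted intensity minus the 75th percentile of the same array, so a level of -2 lies 2 log2 units below that percentile. All 4 probes were well above background and none was saturated on any of the 16 arrays. PLGF was dim, with intensities between 49.7 and 143 units over both probes, and VEGFA lay between 134 and 467 units. The arrays were on 2 slides, and each slide held all 4 groups. Between 76.7% and 82.6% of the spots of an array were well above background, and precision is set by the small number of arrays. Of the 5 neuron and 5 astrocyte markers tested, every one was well above background on all 16 arrays.

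One array stood apart on the neuron markers. The transcription factor gene NEUROD1, a marker of dentate granule neurons, read -5.91 in HC replicate 5 and between -1.31 and 2.03 on the other 15 arrays, and SST, the gene of somatostatin interneurons, read 1.86 there and between 4.20 and 5.22 elsewhere. The mean over the 5 neuron markers was -1.34 in HC replicate 5 and between 0.72 and 1.76 on the others. The array carries the label hippocampus, and what set it apart was not tested. Without it, HC-NC was 0.43 (SE 0.21) for PLGF on A_70_P026691, no longer past the criterion described below, and 0.20 on A_70_P026692, against 0.43 and 0.23 with it. For VEGFA it was -0.13 on A_70_P050921 and -0.06 on A_70_P050922, against -0.23 and -0.15. Without it HK-HC was -0.39 and -0.09 for PLGF and 0.34 and 0.35 for VEGFA, in the same probe order, and the interaction of VEGFA was 0.66 and 0.60.

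PLGF was highest in HC on both probes, and only one of the 2 probes met the criterion, which is an unadjusted p under 0.05. On A_70_P026692, the brighter probe, the NC arrays read -3.78, -3.55 and -3.49 and the HC arrays -3.65, -3.54, -3.43, -2.99 and -3.29. The NK arrays read -4.13, -3.60, -3.53 and -3.35. The HK arrays read -3.56, -3.71, -3.40 and -3.29. In every comparison the groups overlapped, and 3 of 5 HC arrays lay above all NC arrays.

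The second PLGF probe, A_70_P026691, placed HC further above the other groups. Its NC arrays read -3.95, -3.72 and -3.59 and its HC arrays -3.05, -3.52, -3.62, -3.10 and -3.32. Its NK arrays read -4.29, -3.85, -3.49 and -3.50. Its HK arrays read -3.50, -4.05, -3.60 and -3.71. Here 4 of 5 HC arrays lay above all NC arrays, and the groups again overlapped in every comparison.

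**Figure D1:**
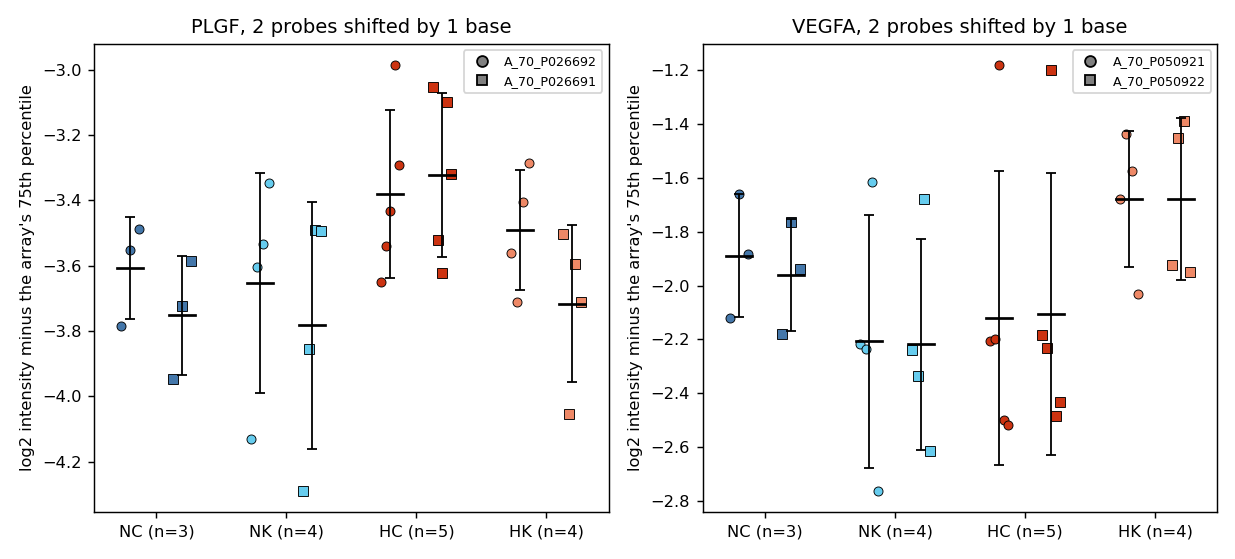
Levels of PLGF (left) and VEGFA (right) on each array, by group, as log2 intensity minus the array's 75th percentile; circles and squares are the 2 probes of each gene, bars are group means and whiskers ± 1 SD. HC replicate 3 stands above the other HC arrays for VEGFA at -1.18 and -1.20, and the PLGF means are highest in HC.

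The order of the PLGF group means was HC, HK, NC and NK on both probes. The means of A_70_P026691 were -3.32 ± 0.25 (SD, n = 5) in HC, -3.72 ± 0.24 (n = 4) in HK, -3.75 ± 0.18 (n = 3) in NC and -3.78 ± 0.38 (n = 4) in NK. The step from HC to HK, at 0.39, was larger than the SD of either group, and the steps from HK to NC and from NC to NK, at 0.04 and 0.03, were smaller. On A_70_P026692 the means were -3.38 ± 0.26 (n = 5), -3.49 ± 0.18 (n = 4), -3.61 ± 0.16 (n = 3) and -3.65 ± 0.34 (n = 4), and no neighbours in the order differed by more than their spread.

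Hypoxia without ketamine (HC-NC) asks what the transient hypoxia left behind a day later. PLGF was higher in HC by 0.43 on the log2 scale on A_70_P026691 (SE 0.20, 95% interval 0.01 to 0.85, a fold of 1.35), past the criterion in the limma fit, with an adjusted p = 0.449. On A_70_P026692 the difference was 0.23 (SE 0.18, interval -0.16 to 0.61), which did not meet it. So 1 of 4 member probes met the criterion, where 10.8% of the 12545 probes tested did. The exact two-sided permutation tests gave p = 0.0714 for A_70_P026691 and p = 0.214 for A_70_P026692, and 0.0357 is the smallest p these groups allow. On the first slide HC-NC was 0.55 and on the second 0.24 for A_70_P026691, and 0.07 and 0.25 for A_70_P026692. With the slide as a block the first probe's difference was 0.37 (SE 0.19) and no longer met the criterion. It was also lost without NC replicate 1 (0.33), NC replicate 2 (0.44), HC replicate 1 (0.36), HC replicate 4 (0.37), HC replicate 5 (0.43) or, through the shared spread alone, NK replicate 2, HK replicate 3 or HK replicate 4.

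In hypoxic fetuses, ketamine (HK-HC) went with a lower PLGF level on the same probe. The difference of A_70_P026691 was -0.39 (SE 0.18, interval -0.78 to -0.01, a fold of 0.762), past the criterion in the limma fit, with an adjusted p = 0.969. On A_70_P026692 it was -0.11 (SE 0.17, interval -0.46 to 0.24). In this comparison 4.73% of all probes met the criterion. Since the HC arrays serve in both HC-NC and HK-HC, a deviation of HC enters them with opposite sign. The exact permutation p was 0.0794 on A_70_P026691 and 0.508 on A_70_P026692, where 0.0159 is the smallest these groups allow. On the first slide HK-HC was -0.49 and on the second -0.31 for A_70_P026691, and -0.04 and -0.11 for A_70_P026692. The call was lost without HC replicate 1 (-0.33), HC replicate 4 (-0.34), HC replicate 5 (-0.39), HK replicate 2 (-0.28), HK replicate 3 (-0.43) or HK replicate 4 (-0.39), and without NK replicate 2 or any of the 3 NC arrays.

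The PLGF probes disagreed most on the array of HC replicate 1. There A_70_P026691 read 0.60 above A_70_P026692, while on the other arrays the pair differed by at most 0.43, with a median of -0.15. Over the 16 arrays the 2 PLGF probes correlated at r = 0.71, and at r = 0.89 without that array, as a description of repeat spots of the same RNA. The VEGFA pair correlated at r = 0.97 and differed by at most 0.25.

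Neither ketamine in normoxia nor hypoxia under ketamine met the criterion for PLGF. NK-NC gave -0.05 (SE 0.19, interval -0.45 to 0.36) on A_70_P026692 and -0.03 (SE 0.21) on A_70_P026691, in a comparison in which 1.78% of all probes met the criterion. HK-NK gave 0.16 (SE 0.17, interval -0.21 to 0.54) and 0.07 (SE 0.19), where 5.26% of all probes did. Between slides the NK-NC difference changed sign on both probes, with -0.20 on the first slide and 0.05 on the second for A_70_P026692, and HK-NK did so on A_70_P026691, with 0.29 and -0.16. The interaction, which is the ketamine effect in hypoxia minus that in normoxia, was -0.06 (SE 0.25, interval -0.60 to 0.47) on A_70_P026692 and -0.36 (SE 0.27, interval -0.95 to 0.22) on A_70_P026691, and 3.44% of all probes met the criterion for it. Hypoxia averaged over both ketamine states gave 0.20 (SE 0.13) and 0.25 (SE 0.14), and neither met the criterion, where 12.4% of all probes did. A_70_P026691 met it in the average without HK replicate 2 (0.30, SE 0.14, adjusted p = 0.457) and in the interaction without NK replicate 1 (-0.53, SE 0.24, adjusted p = 0.997).

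VEGFA was highest in HK, and none of its 6 comparisons met the criterion in the fit without a replicate block. On A_70_P050921, the brighter probe, the HK arrays read -1.68, -1.44, -1.57 and -2.03 and the NC arrays -2.12, -1.66 and -1.88. The HC arrays read -2.21, -2.20, -1.18, -2.50 and -2.52. The NK arrays read -2.22, -2.24, -1.62 and -2.76. The value of HC replicate 3 was the highest of all 16 arrays, the other 4 HC arrays lay below all 3 NC arrays, and the groups overlapped in every comparison.

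The second VEGFA probe, A_70_P050922, followed closely. Its HK arrays read -1.92, -1.45, -1.39 and -1.95 and its NC arrays -2.18, -1.76 and -1.94. Its HC arrays read -2.18, -2.23, -1.20, -2.48 and -2.43, and its NK arrays -2.24, -2.33, -1.68 and -2.61. HC replicate 3 was again the highest array.

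The order of the VEGFA means was HK, NC, HC and NK on both probes. On A_70_P050921 they were -1.68 ± 0.25 (SD, n = 4), -1.89 ± 0.23 (n = 3), -2.12 ± 0.55 (n = 5) and -2.21 ± 0.47 (n = 4). On A_70_P050922 they were -1.68 ± 0.30, -1.96 ± 0.21, -2.11 ± 0.52 and -2.22 ± 0.39, in the same order. On neither probe did neighbours in this order differ by more than the larger of their SDs.

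A day after hypoxia without ketamine, VEGFA was not detectably different from normoxia. HC-NC was -0.23 on A_70_P050921 (SE 0.29, interval -0.86 to 0.39, adjusted p = 0.827) and -0.15 on A_70_P050922 (SE 0.28), so on the first probe the interval spans a fall to a fold of 0.552 and a rise to 1.31. The exact permutation p was 0.536 and 0.714. Without HC replicate 3 the difference of A_70_P050921 was -0.47 (SE 0.23, adjusted p = 0.462). Under ketamine, hypoxia (HK-NK) gave 0.53 on A_70_P050921 (SE 0.28, interval -0.08 to 1.13, adjusted p = 0.946, a fold of 1.44) and 0.54 on A_70_P050922 (SE 0.27, a fold of 1.45). Here 2 of 4 HK arrays lay above all NK arrays, the exact permutation p was 0.0857 on both probes, and 0.0286 is the smallest these groups allow. With the replicate number as a block both probes met the criterion in HK-NK (SE 0.18, adjusted p = 0.51, and SE 0.17, adjusted p = 0.49). Pregnancies were assigned to normoxia or hypoxia, so NK and HK arrays of one number come from different pregnancies. In HK-NK the block therefore pairs no twins.

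Ketamine in hypoxia (HK-HC) differed in VEGFA by 0.44 on A_70_P050921 (SE 0.27, interval -0.13 to 1.01, adjusted p = 0.969) and by 0.43 on A_70_P050922 (SE 0.25). The exact permutation p was 0.206 and 0.159. Ketamine in normoxia (NK-NC) gave -0.32 (SE 0.30, interval -0.97 to 0.33) and -0.26 (SE 0.29). On the former probe it was -0.52 without NK replicate 3 and -0.13 without NK replicate 4, and on the latter -0.44 and -0.12. The interaction of the 2 was 0.76 (SE 0.41, interval -0.11 to 1.63, adjusted p = 1) on A_70_P050921 and 0.68 (SE 0.38) on A_70_P050922. Hypoxia averaged over ketamine was 0.15 (SE 0.20) and 0.20 (SE 0.19), and 0.030 and 0.084 without HC replicate 3. On both probes the sign of each of the 4 differences between a pair of groups was the same on either slide. For A_70_P050921, HK-HC was 0.64 on the first slide and 0.27 on the second, HK-NK 0.67 and 0.39, HC-NC -0.31 and -0.18, and NK-NC -0.34 and -0.30.

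Single arrays decided which side of the criterion VEGFA lay on. Without HC replicate 3, HK-HC on A_70_P050921 was 0.68 (SE 0.21, adjusted p = 0.989) and the interaction 0.99 (SE 0.31, adjusted p = 1), both past the criterion. On A_70_P050922 they were 0.65 (SE 0.19) and 0.91 (SE 0.29), also past it. Without NK replicate 3, HK-NK was 0.73 (SE 0.28, adjusted p = 0.851) on A_70_P050921 and the interaction was 0.96 (SE 0.39), and on A_70_P050922 they were 0.72 and 0.86, all 4 past the criterion. Leaving out HC replicate 3 also brought HK-NK past it on both probes with the differences as before at 0.53 and 0.54, since the groups share one estimate of spread, and leaving out HK replicate 4 did so on A_70_P050922 alone (0.63). Over all probes tested, HC replicate 3 lay 0.46 from its group mean (root mean square), between 0.43 and 0.57 in the other HC arrays.

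**Figure D2:**
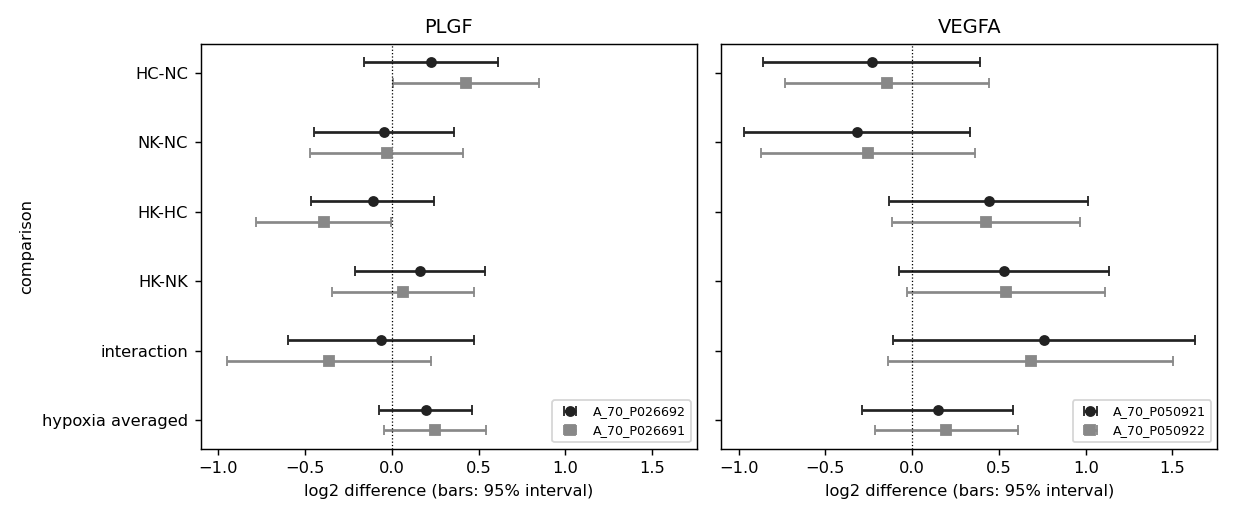
Log2 differences of PLGF (left) and VEGFA (right) in the 6 comparisons, with 95% intervals from the fit; black circles are the brighter probe and grey squares the second probe of each gene. The PLGF probe A_70_P026691 alone has intervals that leave out 0, in HC-NC (0.01 to 0.85) and HK-HC (-0.78 to -0.01).

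PLGF and VEGFA did not rise and fall together over the arrays. Their brighter probes correlated at r = -0.19 (Pearson, permutation p = 0.474) and rho = -0.16 (Spearman, permutation p = 0.549) over the 16 arrays. Without NK replicate 4 and HC replicate 3, the arrays farthest from the VEGFA median, r was -0.21. Within the slides it was 0.28 over 8 arrays and -0.60 over 8. One relation was tested, so the adjusted values equal these.

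KDR, the signaling receptor of VEGFA, had 4 probes, of which 3 were lower and met the criterion for hypoxia averaged over ketamine, where 12.4% of all probes did, with differences from -0.50 to -0.15 over the 4. In HC-NC 1 of the 4, A_70_P026596, met the criterion, against 10.8% of all probes, and in HK-NK another, A_70_P041631, against 5.26%. Its brightest probe, A_70_P041631, is shown because its values are given in full.
KDR A_70_P041631: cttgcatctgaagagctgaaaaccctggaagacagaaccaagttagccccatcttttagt
On it the NC arrays read -3.03, -3.04 and -3.29, the NK arrays -3.26, -3.09, -2.31 and -3.28, the HC arrays -3.59, -3.36, -3.71, -3.48 and -3.48, and the HK arrays -3.58, -3.73, -3.16 and -3.52. All 5 HC arrays lay below the 3 NC arrays, and 3 of 4 HK arrays lay below all NK arrays. Hypoxia averaged over ketamine gave -0.46 (SE 0.14, adjusted p = 0.192, a fold of 0.728) and HK-NK gave -0.51 (SE 0.19, adjusted p = 0.901), both past the criterion, and HC-NC gave -0.40 (SE 0.20), which was not. HC-NC was -0.44 on the first slide and -0.26 on the second, and HK-NK -0.48 and -0.55. Without HC replicate 5 the average was -0.46. HK-NK lost its call without NK replicate 3 (-0.29) or HK replicate 2 (-0.44).

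On the other KDR probes the averaged difference was negative as well, with unequal sizes. Under ketamine (HK-NK) the difference was -0.09 on A_70_P026596, -0.37 on A_70_P026597 and -0.07 on A_70_P041632, none past the criterion. By slide, HK-NK was -0.53 and 0.35 on A_70_P026596, -0.63 and -0.11 on A_70_P026597, and -0.30 and 0.16 on A_70_P041632. On A_70_P026596, the KDR probe with the largest HC-NC difference, HC-NC was -0.90 (SE 0.29, adjusted p = 0.249) and the average over ketamine -0.50 (SE 0.20, adjusted p = 0.33), which was lost without NC replicate 1 or 3, NK replicate 1 or 2, or HK replicate 2 or 4 (-0.48 to -0.41). Its neighbour A_70_P026597, which shares 40 bases with it, gave -0.42 for the average (SE 0.15, adjusted p = 0.284). A_70_P041632, which lies elsewhere in the clone of the brightest probe and shares no bases with it, gave -0.15 (SE 0.11) and did not meet the criterion. On 3 of the 4 KDR probes the HC and NC arrays did not overlap, which held for 7.79% of all probes tested. With normexp background correction from local backgrounds, where the median of all probes moved by 0.19 in the averaged comparison, the averaged differences of the 3 probes that met the criterion were positive, between 0.19 and 0.55, none of them past the criterion. Relative to that median they were 0.36 on A_70_P026596, 0.34 on A_70_P026597 and -0.006 on A_70_P041631. Their intensities were between 10.7 and 202 units. The level of endothelial markers, as the mean over 8 genes that include KDR and FLT1, lay between -3.43 and -3.34 in NC, -3.66 and -3.04 in NK, -3.11 and -2.33 in HC and -3.09 and -2.60 in HK, and the part of endothelial cell number in the KDR values was not tested. Of these 8 genes SELP (4.15, SE 0.98) and ICAM1 (2.74, SE 0.69), adhesion molecules of activated endothelium, rose in HC-NC, against 10.8% of all probes that met the criterion. NOS3 (-0.48), PECAM1 (0.08), TIE1 (0.16), ABCB1 (0.29) and FLT1 (0.37) did not meet it there, and neither did KDR on its brightest probe (-0.40). As these went both ways, the higher mean of the list in HC came from SELP and ICAM1.

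**Figure D3:**
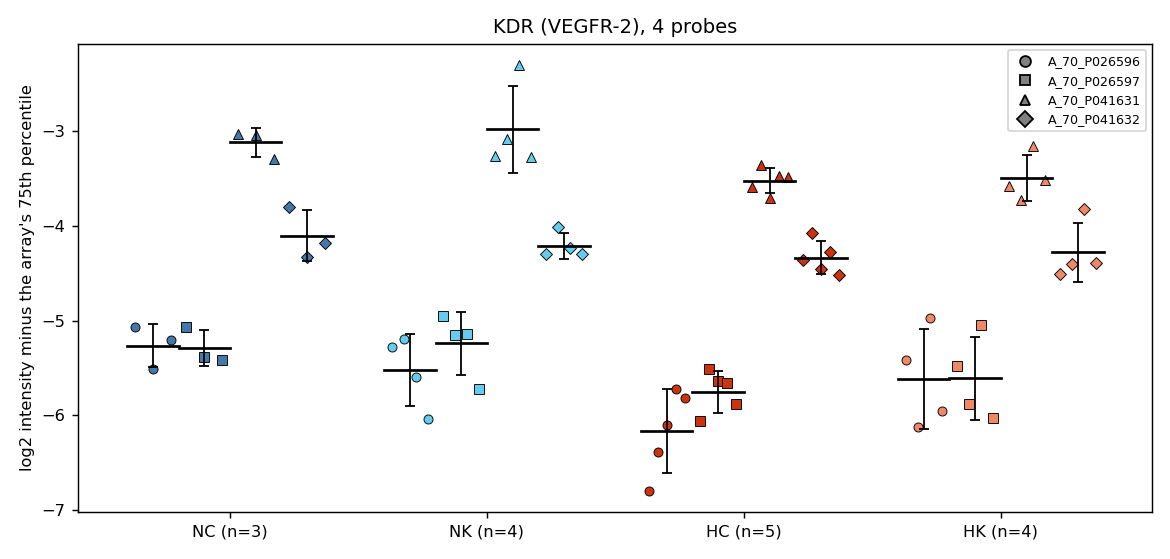
Levels of the 4 KDR probes on each array, by group, as log2 intensity minus the array's 75th percentile, with group means and ± 1 SD. On A_70_P041631 (triangles) the 5 HC arrays lie between -3.71 and -3.36 and the 3 NC arrays between -3.29 and -3.03; levels of different probes are not comparable.

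FLT1, the receptor that binds both ligands, had 5 probes, and its brightest, A_70_P026602, is annotated as the soluble form. On that probe the NC arrays read -4.53, -4.64 and -4.72, the NK arrays -4.82, -4.89, -4.27 and -5.18, the HC arrays -3.65, -4.62, -2.65, -5.32 and -5.05, and the HK arrays -3.83, -4.59, -4.31 and -4.80. The highest array was HC replicate 3, as for VEGFA, and it was the highest on 4 of 5 FLT1 probes but on none of the 4 KDR, 3 NRP2 or 2 PLGF probes. None of the 6 comparisons met the criterion on this probe, with HC-NC at 0.37 (SE 0.47) and HK-NK at 0.41 (SE 0.46). A dim probe that overlaps it, A_70_P026601, met the criterion in HC-NC (adjusted p = 0.435), where 10.8% of all probes did. It was well above background on 2 of 5 arrays in HC and on 0 of 3 in NC. All 4 NK arrays also lay above all NC arrays on it, with 0 of 4 NK arrays well above background. With the NC arrays raised to their lowest signal well above background, HC was 1.26-fold higher. That fold is no strict bound, since HC arrays under background entered with their own reading. The call was lost without NC replicate 1 or 3 or HC replicate 1 or 3. NRP2, a coreceptor of the family, met the criterion on 1 of 3 probes in 1 comparison, HK-HC, where 4.73% of all probes did. The difference on that probe, A_70_P014731, was 0.83 (SE 0.34, adjusted p = 0.969). It lost its call without HC replicate 3 or 4 or HK replicate 2 or 3. HC replicates 3 and 4, at -6.79 and -7.04, lacked a clear signal over background there, so 0.83 rests in part on such readings. The second NRP2 probe, which shares 59 bases with A_70_P014731, gave 0.40 (SE 0.19) in HK-HC, and the brightest gave 0.16 (SE 0.21).

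The gene patterns most like those of the members were ranked by Pearson's r over the 16 arrays among 866 genes, as a description. For VEGFA the 5 highest were IGFR1 (0.71), FLT1 (0.70), C3 (0.70), BCL2 (0.69) and DYNLT3 (0.63), and the 5 lowest were TM7SF2 (-0.81), CDKN1C (-0.68), SLC9A3R1 (-0.67), PCNA (-0.64) and ASIP (-0.63). FLT1 on A_70_P026602 followed VEGFA with r = 0.57 over 15 arrays without HC replicate 3, and with r = 0.12 on the first slide against 0.88 on the second, over 8 arrays each. On the other 4 FLT1 probes r with VEGFA lay between 0.19 and 0.75. For PLGF the 5 highest were HIF3A (0.78), MRPL32 (0.74), RPS25 (0.70), PTAFR (0.70) and RHOB (0.70), of which HIF3A encodes a HIF alpha subunit. HIF3A was well above background on 13 and PTAFR on 11 of the 16 arrays, so their r includes readings under background. For HIF1A and EPAS1, also of the HIF pathway, r with PLGF was -0.048 and -0.008. The 5 lowest were CSN3 (-0.84), HR (-0.80), LOC100125615 (-0.75), SLC25A17 (-0.73) and FASN (-0.72).

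**Figure D4:**
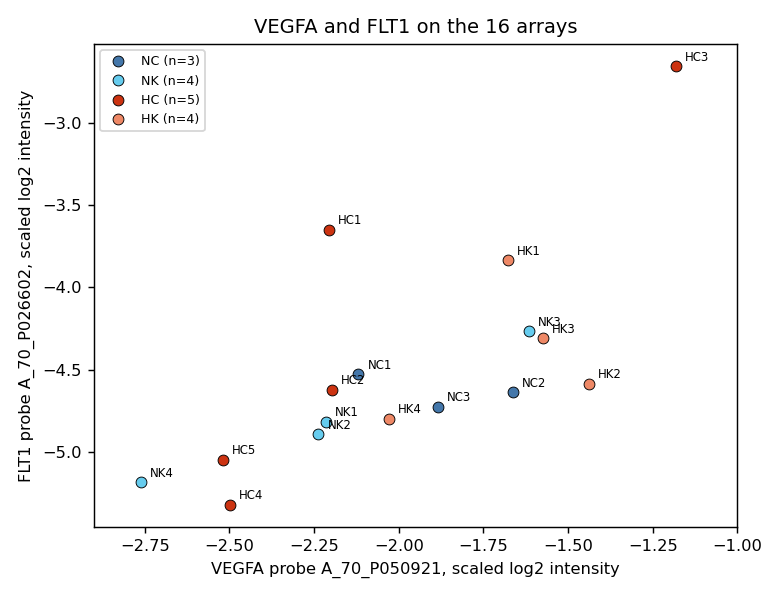
VEGFA (probe A_70_P050921, x axis) against FLT1 (probe A_70_P026602, annotated as soluble FLT1, y axis) on the 16 arrays, both as scaled log2 intensity, coloured by group and labelled by group and replicate. HC replicate 3, at -1.18 and -2.65, is the highest array on both axes, and r falls from 0.70 to 0.57 without it.

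Of 50 other angiogenic factors and inhibitors, 33 were tested, and in HC-NC 4 were higher and 5 lower, where 10.8% of all probes met the criterion, with a median of -0.15 against -0.03 over all probes. The higher ones were CXCL8, an angiogenic chemokine, by 3.76 (SE 1.19), CCN1, a matrix-associated angiogenic protein, by 1.18 (SE 0.50), PLAUR, the urokinase receptor, by 1.15 (SE 0.43), and FGF2, a heparin-binding growth factor, by 0.64 (SE 0.28). The lower ones were JAG1, a Notch ligand, by -0.85 (SE 0.25), the growth factor IGF1 by -0.59 (SE 0.27), the membrane protease MMP14 by -0.56 (SE 0.22), PLAU, which encodes urokinase, by -0.45 (SE 0.20) and the FGF receptor FGFR1 by -0.33 (SE 0.15). All 9 had adjusted p-values of at least 0.211. CXCL8 was well above background on 2 of 3 NC arrays and JAG1 on 3 of 5 HC arrays. The calls of CXCL8 and JAG1 held without any single array, and those of the other 7 were each lost for at least 1, with FGFR1 keeping its call in 6 of 16 such fits. With normexp from local backgrounds, where the median of all probes moved by 0.34, the 5 lower genes were positive. Relative to that median JAG1, MMP14 and IGF1 stayed positive, and PLAU (-0.13) and FGFR1 (-0.02) did not.

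Between the other pairs of groups at most 1 of these 33 genes met the criterion. In HK-HC, CCN1 was lower by -1.01 (SE 0.46), against 4.73% of all probes, and the call was kept in 3 of 16 fits that left out 1 array (-1.43 to -0.69). In HK-NK, FGFR1 was lower by -0.34 (SE 0.15), against 5.26% of all probes, with the call kept in 11 of 16. In NK-NC 0 of 33 did by limma at an unadjusted p under 0.05, against 1.78% of all probes. At an adjusted p under 0.05, 0 of all 12545 probes tested did in NK-NC. For hypoxia averaged over ketamine, where 12.4% of all probes met the criterion, 5 were higher, which were CXCL8 (2.63), the vasoconstrictor EDN1 (0.76), PLAUR (0.81), FGF2 (0.44) and SPP1 (0.28), and 5 lower, which were PTGS2 (-1.40), MMP14 (-0.47), JAG1 (-0.44), PLAU (-0.35) and FGFR1 (-0.33). Without 1 array at a time the averaged call was kept in 4 of 16 fits for EDN1, 6 for FGF2, 7 each for SPP1 and PTGS2, 13 for JAG1 and 14 for PLAU, and in all 16 for the other 4 genes. Without HC replicate 5 the average was smaller in size for PTGS2 (-0.98) and FGFR1 (-0.28). It was larger for CXCL8 (2.97), EDN1 (0.98) and PLAU (-0.42). Of 6 angiopoietin genes and receptors, ANGPT1, ANGPT2 and TIE1 were tested. In every comparison 0 of 3 met the criterion by limma, where between 1.78% and 12.4% of all probes did. Of 6 listed VEGF family ligands, PLGF and VEGFA alone were on the array by name.

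Upstream of VEGFA, 5 of 12 genes of the HIF pathway were tested. ARNT, the HIF beta subunit, was lower in HC-NC by -0.54 (SE 0.13, adjusted p = 0.181) and in NK-NC by -0.48 (SE 0.14). It was higher in HK-HC by 0.35 (SE 0.12, adjusted p = 0.969) and in HK-NK by 0.29 (SE 0.13, adjusted p = 0.940). Of all probes 10.8%, 1.78%, 4.73% and 5.26% met the criterion, in this order. The calls were kept in 16, 16, 15 and 10 of 16 fits without 1 array. Under other settings they were kept in 10 of 12, 10 of 13, 10 of 13 and 5 of 12. With normexp from local backgrounds its HC-NC and NK-NC values were positive, at 0.94 and 0.82. HIF1A was lower in HK-HC by -0.44 (SE 0.17, adjusted p = 0.969), against 4.73% of all probes. EPAS1, ARNT2 and HIF3A met the criterion in no comparison on their brightest probes. Among 9 tested of 29 other hypoxia-response genes, 3 were higher in HC-NC, namely IGFBP3 by 2.07 (SE 0.56) and the glucose transporters SLC2A3 by 1.13 (SE 0.29) and SLC2A1 by 0.50 (SE 0.22), and none was lower, against 10.8% of all probes, with a list median of 0.07. Their adjusted p-values in HC-NC were 0.190, 0.190 and 0.429. Without 1 array at a time these calls were kept in 16, 16 and 11 of 16 fits. In HK-NK, where 5.26% of all probes met the criterion, IGFBP3 was higher by 1.20 (SE 0.54, adjusted p = 0.940), a call kept in 7 of 16 such fits. IGFBP1 was higher too, well above background on 2 of 4 HK and 0 of 4 NK arrays. With the NK arrays raised to their lowest signal well above background its fold was 1.78, which is no strict bound. For hypoxia averaged over ketamine IGFBP3 (1.64), SLC2A3 (0.70) and SLC2A1 (0.46) met the criterion, against 12.4% of all probes, as did IGFBP1, for which no level is given because it was well above background on 0 of 4 NK and 1 of 3 NC arrays.

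Some markers of other cells also met the criterion. Of 5 microglia and macrophage markers tested, CD14 (1.97, SE 0.45), FCGR1A (1.13, SE 0.44) and FCER1G (0.72, SE 0.27) were higher in HC-NC, against 10.8% of all probes, and CD14 and FCGR1A were lower in HK-HC, CD14 by -1.10, against 4.73%. Their mean level lay between -4.77 and -3.91 in NC, -4.44 and -3.88 in NK, -3.68 and -2.35 in HC and -4.08 and -3.42 in HK. The neuron list, with 5 markers tested, lay between 1.48 and 1.76 in NC and between -1.34 and 1.66 in HC, where HC replicate 5 was the lowest. Of its genes GRIA1 alone met the criterion in HC-NC, at -0.65 (SE 0.26), against 10.8% of all probes. GRIN1 (-0.97), SST (-0.66), NEUROD1 (-1.64) and NPY (0.26) did not. These differences include HC replicate 5. The astrocyte list, also of 5, lay between 1.61 and 1.77 in NC and 1.45 and 2.18 in HC. Of its genes GJA1 alone met the criterion in HC-NC, at 0.74 (SE 0.24), against 10.8% of all probes. GFAP (0.52), AQP4 (0.07), SLC1A2 (-0.40) and SLC1A3 (-0.36) did not and went both ways. The part of cell composition in the PLGF, VEGFA and KDR values was not tested.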

How the data were processed

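One-color arrays of 16 hippocampi were read on the Agilent 15K sheep platform. The files the authors deposited hold the intensity of every spot as Feature Extraction gave it, corrected for background inside the array and not scaled to other arrays. A second deposited table holds log2 values of these arrays, quantile normalized with low signals raised, and served as an alternative. The submitters' processing notes name limma and R 2.15.1.

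Control and outlier spots were dropped, the intensity was put on the log2 scale, each array was centred on the 75th percentile of its remaining spots, and spots of a probe were averaged. A probe was tested if 3 or more of the 16 arrays read it well above background, which left 12545 probes, 1350 of them with a gene name, for 870 symbols. They were tested by limma 3.58.1 in R 4.3.3 in one fit of the 4 groups (12 residual degrees of freedom), two-sided, with Benjamini-Hochberg adjustment over all of them. Single values were also compared with exact permutation tests (SciPy, 16 tests, smallest adjusted value 0.343), and the correlation of PLGF with VEGFA with 100000 permutations. Lists were read by the brightest probe of each gene, and list genes past the criterion are named. The members, lists and rules were chosen with earlier results of these data known. The criterion, an unadjusted p under 0.05, follows the methods of the study. The fit was tested on simulated data.

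A probe without signal in a group is given as a fold, with each array of that group set at the higher of its lowest signal well above background and its own reading. Arrays of the other group entered with their own reading, also under background, so the fold is not a strict lower bound. Replicate numbers are those of the labels. NC and NK arrays of one number deviated together (correlations of 0.21 to 0.37 for 3 of 3 pairs, against a mean of -0.10 for other numbers), which held for 3 of 4 HC and HK pairs (lowest 0.07). The alternatives were normexp background correction (offset 50), quantile and median scaling, the deposited log2 values, other filters on dim probes, slide and replicate blocks, the compared groups alone, array weights, a trended robust prior, and leaving out each array. No genome was used, so no coordinates are given.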

Additional observations from a re-analysis of the deposited data

Results flagged for a closer look

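HC replicate 3 stood apart for VEGFA. Its distance to the next HC array was 0.76 of the whole range of the 5 HC arrays on A_70_P050921 and 0.765 on A_70_P050922, which are readings of nearly the same sequence. NK replicate 4 stood apart for FLT1 on A_70_P026631, at 0.87 of the range of the 4 NK arrays. These were 3 of the 48 groups of 4 or 5 arrays looked at over 16 probes of ligands and receptors, and chance flags about 1 in 20 groups.

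The ketamine difference of ARNT was -0.48 in normoxia and 0.35 in hypoxia on the log2 scale, an interaction of 0.84 in the limma fit (SE 0.19, adjusted p = 1). That of JAG1 was -0.50 and 0.33, neither past the criterion, with an interaction of 0.83 (SE 0.35, adjusted p = 1). Both interactions were past the unadjusted criterion, which 3.44% of all probes tested met. Without 1 array at a time ARNT kept this call in 16 of 16 fits and JAG1 in 11 of 16. Under other settings it turned sign in 1 of 12 for ARNT and in 2 of 11 for JAG1. JAG1 was well above background on 3 of 5 HC and 2 of 4 HK arrays. Neither PLGF nor VEGFA had an interaction past the criterion.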

How the results depend on the processing

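Of the member values under other settings, 261 kept direction and side of the criterion, 10 lost a call, 4 gained one and 17 turned sign. With 1 array left out, 343 kept both, 18 lost a call, 13 gained one and 10 turned. Normexp from local backgrounds moved the median of all probes by 0.34 in HC-NC, 0.28 in NK-NC, -0.31 in the interaction and 0.19 in the average over ketamine, and turned values as follows. PLGF NK-NC became 0.79 on both probes, at 0.51 relative to that median and so turned there too. VEGFA HC-NC became 0.30 (A_70_P050921) and 0.34 (A_70_P050922), NK-NC 0.11 and 0.14, and the interaction of A_70_P050922 -0.037, none of them turned relative to that median. HC-NC became 0.94 for ARNT, 0.32 for FGFR1, 0.70 for IGF1, 0.96 for JAG1, 0.89 for KDR A_70_P026596, 0.85 for MMP14 and 0.22 for PLAU. The average became 0.15 for FGFR1, 0.54 for JAG1, 0.55, 0.54 and 0.19 for KDR A_70_P026596, A_70_P026597 and A_70_P041631, 0.49 for MMP14 and 0.043 for PLAU. ARNT became 0.82 in NK-NC and -0.67 in the interaction, and JAG1 -0.82 there. The values of ARNT, IGF1, JAG1, MMP14, KDR A_70_P026596 and KDR A_70_P026597 were turned relative to the median of all probes too. Those of FGFR1, PLAU and KDR A_70_P041631 were not. The cause was not tested.

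PLGF A_70_P026691 lost both calls with normexp (HC-NC 1.01, HK-HC -0.086), median scaling (0.43, -0.38), the replicate block (0.37, -0.39) and normexp from the median background of the array, chosen after seeing the data (0.24, -0.19). The replicate block joins normoxia and hypoxia arrays of one number, which come from different pregnancies. Set within each oxygen group, a choice also made after seeing the data, it kept the HK-HC call. It lost HC-NC alone with the slide block (0.37) and HK-HC alone with array weights (-0.32). Normexp from the median background also gave NK-NC of 0.0068 on it and 0.0028 on A_70_P026692, FLT1 A_70_P026601 HC-NC of -0.012 and SPP1 of -0.0067 in the average. The deposited log2 values gave A_70_P026691 HK-NK of -0.0071 and NK-NC of 0.00795, A_70_P026692 NK-NC of 0.025 and JAG1 an interaction of -0.0059. The interaction of A_70_P026692 turned to 0.024 with the slide block, 0.062 with the replicate block and 0.061 with that block within each oxygen group, chosen after seeing the data.

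With the replicate block VEGFA HK-NK met the criterion at 0.53 on A_70_P050921 and 0.54 on A_70_P050922, as did the average of the latter at 0.30, and HC-NC turned to 0.021 and 0.062. In HK-NK and HC-NC this block joins arrays of different pregnancies. Leaving out 1 array at a time gave PLGF A_70_P026691 HC-NC from 0.33 to 0.51 and HK-HC from -0.47 to -0.28, with the calls kept in 8 and 6 of 16, HK-NK from -0.10 to 0.18 and NK-NC from -0.13 to 0.14. PLGF A_70_P026692 ranged from -0.22 to 0.039 in the interaction and from -0.15 to 0.11 in NK-NC. VEGFA A_70_P050921 ranged from 0.34 to 0.68 in HK-HC, from 0.34 to 0.73 in HK-NK and from 0.58 to 0.99 in the interaction.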
